A study of Mesocricetus auratus with 11 samples.

Results

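The loss of DNA methylation in MT2 cells after 5-aza-2'-deoxycytidine (5aCdR) was followed CpG by CpG, comparing 3 wells given 5aCdR with 4 wells given vehicle. The members were the 155920 CpGs with at least 10 reads in all 7 MT2 libraries, after the reads of both strands of a CpG were summed. They were 8.25% of the 1891085 CpGs listed in any MT2 library, and 2010882 CpGs were listed over the 11 libraries of the series. MT2 is a female Syrian hamster (Mesocricetus auratus) line, used at about passage 28. It descends from a colony that showed morphological transformation under benzo[a]pyrene (5 µg/mL) and got past senescence. Vehicle wells received 0.05% DMSO for 48 h, and 5aCdR wells received 5 µM 5aCdR for 48 h. All wells were seeded from 1 thawed stock of this 1 line. They are replicates of culture and library, so p-values measure the spread between wells only. The other 4 libraries, primary fetal cells of gestation day 13.5, each from another female stock, served here only to place neighbouring CpGs and to sort CpGs by strand or level. Methylation calls give no expression markers, so the cell line label was not checked.

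Methylation at CpGs sits on both strands, and after DNA replication the maintenance methyltransferase DNMT1, guided by UHRF1, copies it from the old strand to the new one. 5aCdR is a cytosine analog that is built into DNA during replication and traps DNA methyltransferases there, so that methylation is lost as cells divide. CpG-dense stretches are mostly unmethylated in mammalian cells, while isolated CpGs are mostly methylated. Reduced representation bisulfite sequencing (RRBS) cuts DNA at a CpG-containing motif, converts unmethylated cytosines and reads the fragment ends. The level of a CpG is the percent of its reads in which the cytosine was not converted.

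Vehicle libraries held 17834610 to 37595680 reads over CpG positions and 5aCdR libraries 36110136 to 46148127. The median CpG had 37.8 reads per vehicle library and 54 reads per 5aCdR library. Vehicle wells 2 and 3 were the shallowest, with 18242833 and 17834610 reads. Reads overstated the number of molecules read. From the scatter of levels between wells, a read count equivalent to 1.88 to 2.93 independent reads per CpG was obtained for the vehicle wells and 3.10 to 3.81 for the 5aCdR wells. Levels of most single CpGs in single wells were therefore coarse, and means over many CpGs carry the results.

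Averaged over the common CpGs, methylation was lower after 5aCdR. The mean level was 35.7, 35.6, 35.6 and 35.6% in vehicle wells 1 to 4 and 31.5, 31.1 and 31.2% in 5aCdR wells 1 to 3. Each 5aCdR well lay below each vehicle well. The mean fell by 4.39 percentage points, from 35.7% ± 0.0481 (SD, n = 4) to 31.3% ± 0.222 (SD, n = 3), a relative change of -12.3% (exact two-sided permutation test, p = 0.0286, the smallest that the 35 splits allow). In mitochondrial DNA, where a read called methylated mostly counts incomplete conversion, 9 CpGs were called methylated in 3.00% ± 0.386 (SD, n = 4) of pooled reads with vehicle and 2.45% ± 0.191 (SD, n = 3) after 5aCdR. That difference of -0.557 points missed the threshold (p = 0.0857 in the exact permutation test). As a mean over the 9 CpGs with equal weight, the measure used for the other levels here, they were at 10.3, 5.50, 11.2 and 4.87% with vehicle and at 5.68, 1.77 and 3.19% after 5aCdR. These wells overlapped widely, and the difference of -4.42 points, as large as that of the common CpGs, did not reach the threshold either (exact permutation, p = 0.171). Just inside the read minimum, at the 47075 CpGs whose lowest library had 10 to 12 reads, the mean went from 30.9 to 26.6%. Just outside it, at 183458 CpGs that 1 of the vehicle libraries alone did not list, it went from 31.9 to 28.1%.

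Over classes of starting level, the mean loss was a similar fraction of that level. CpGs were sorted by their level in vehicle wells 1 and 2 and then read in vehicle wells 3 and 4 and the 5aCdR wells, so that no well both sorted and measured. The 34851 CpGs sorted at 80% or more stood at 87.6 and 87.7% in vehicle wells 3 and 4 and at 78.1, 77.3 and 77.3% in the 5aCdR wells. This was a difference of -10.1 points and a relative change of -11.6%. CpGs sorted at 40 to 60% went from 48.6 to 42.3%, a relative change of -13.0%. Those sorted at 20 to 40% had the largest relative change of the 7 classes, -14.5%, from 34.3 to 29.3%. The 65038 CpGs sorted at 0 to 5% differed by -0.381 points, which was less in size than both mitochondrial differences, -0.557 points over pooled reads and -4.42 as a mean over CpGs. Over the 7 classes the relative change ran from -14.5 to -10.1%, while the difference in points ran from -10.3 to -0.381. Vehicle wells 1 and 2, which set the classes, had 2.93 and 1.98 independent reads per CpG, so each class mixed CpGs of unlike level. Those sorted at 0 to 5% stood at 3.77% in vehicle wells 3 and 4, and those at 95 to 100% at 90.8%. Such mixing draws the relative changes of the classes together, to an extent that was not measured. The 5aCdR wells lay below both vehicle wells in each class, and with 3 against 2 wells the exact permutation p of each class was 0.1, the smallest possible.

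**Figure D1:**
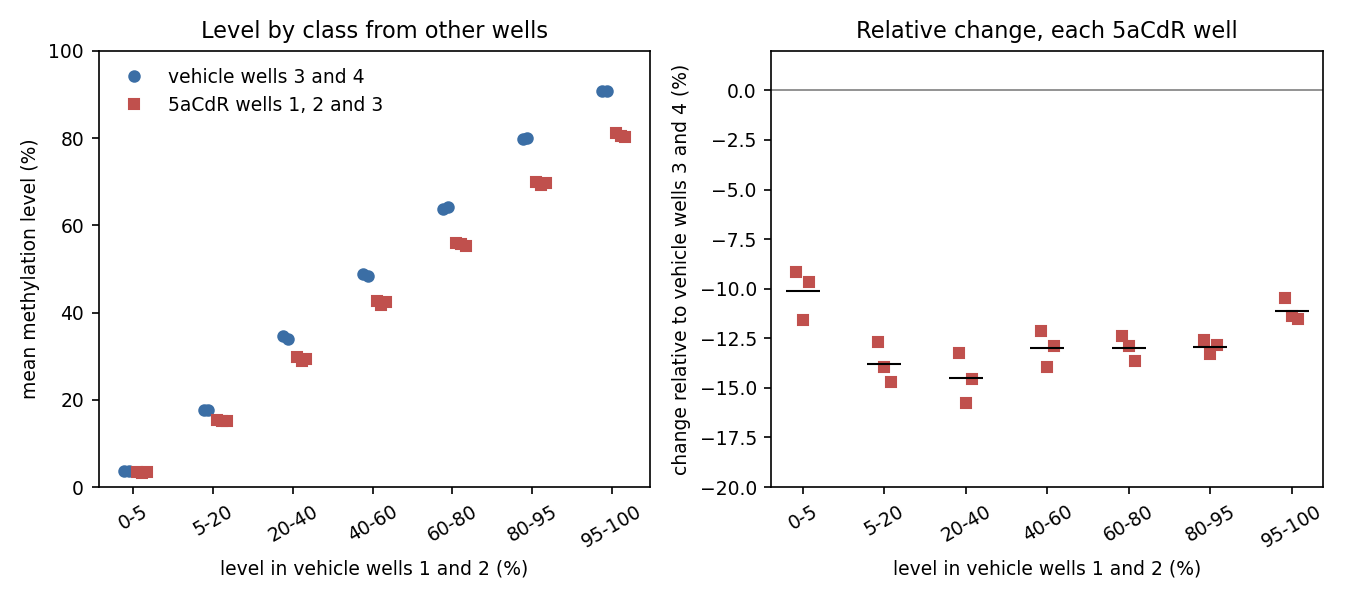
Mean methylation level (left, percent) and change of each 5aCdR well relative to the mean of vehicle wells 3 and 4 (right, percent), for 7 classes of CpGs sorted by their level in vehicle wells 1 and 2. Points are wells and black bars the mean change, which lies between -14.5 and -10.1% in all 7 classes.

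The same comparison was made with all 7 wells by sorting on one strand and reading the other, at 2850 CpGs with at least 10 reads on each strand in every MT2 library. Sorted at 80% or more on the forward strand, 411 CpGs had reverse-strand levels of 60.6, 60.5, 61.1 and 61.9% in the vehicle wells. In the 5aCdR wells these CpGs stood at 52.9, 52.3 and 49.3%. The groups did not overlap, and the level fell by 9.51 points, a relative change of -15.6% (exact permutation test, p = 0.0286). All 7 classes were lower after 5aCdR, with relative changes from -19.5 to -12.9%. In 6 of them the groups did not overlap, with an adjusted p of 0.0333 (Benjamini-Hochberg over the classes, exact permutation test). CpGs sorted at 5 to 20%, where the groups overlapped, went from 18.99 to 16.5% (adjusted p = 0.0857, exact permutation).

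The strands of a CpG disagreed with each other in a way that repeated between wells. Over these 2850 CpGs, the correlation of 1 strand between different vehicle wells was 0.715 to 0.799. That of opposite strands within a vehicle well was 0.374 to 0.451, and within a 5aCdR well 0.411 to 0.443. These are descriptions across CpGs, which share fragments and depth. Of 70033 CpGs with at least 20 reads on each strand over the primary libraries, 7186 (10.3%) had in those libraries 1 strand below 5% and the other at 50% or more. Read in MT2, the methylated strand of these CpGs fell from 69.4% ± 0.564 (SD, n = 4) to 56.7% ± 0.726 (SD, n = 3) where the reverse strand was the low one. It fell from 64.5% ± 0.880 (SD, n = 4) to 53.2% ± 1.22 (SD, n = 3) where the forward strand was (exact permutation test, p = 0.0286 in each). These were relative changes of -18.4 and -17.6%. The level of the low strand fell as well, from 6.76 to 4.83% in the first set and from 6.64 to 4.94% in the second. Its relative changes were -28.5 and -25.5% (exact permutation test, p = 0.0286 in each). The low strand held 48.7% of reads in both groups in the first set, and 45.3% with vehicle and 45.6% after 5aCdR in the second. These shares differed by less than the spread between wells (exact permutation, p = 0.83 and 0.63). What sets the disagreement was not tested, and levels of CpGs with both strands summed mix 2 unlike values at such positions.

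CpGs listed on 1 strand only and CpGs listed on both lost different fractions. The 50830 CpGs listed on the same single strand in every library were at 51.9, 52.0, 52.1 and 51.9% in the vehicle wells and at 47.0, 46.5 and 46.7% in the 5aCdR wells, a relative change of -10.1%. The 105090 CpGs with both strands listed went from 27.8% ± 0.119 (SD, n = 4) to 23.8% ± 0.200 (SD, n = 3), a relative change of -14.3%. The difference between the sets was -0.0696 on the log2 scale (5aCdR against vehicle, both strands against 1; exact permutation test, p = 0.0286). The sets also differed in how reads were shared between the groups. The ratio of the median reads after 5aCdR to the median reads with vehicle was 1.27 at CpGs listed on 1 strand and 1.48 at the others.

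CpGs were next sorted by the distance to the nearest CpG listed in any of the 11 libraries, a neighbour that RRBS happened to cover and not always the nearest in the genome. Of the common CpGs, 63.1% had such a neighbour within 20 bp. Over 6 classes of spacing, from 2 to 5 bp up to over 100 bp, the starting level was higher the wider the class. The difference grew in size from -2.39 points at 2 to 5 bp to -6.52 at 51 to 100 bp and was -5.08 over 100 bp. With the nearest CpG at 2 to 5 bp, 36789 CpGs went from 20.3% ± 0.0702 (SD, n = 4) to 17.9% ± 0.202 (SD, n = 3). At 21 to 50 bp, 32424 CpGs went from 43.8% ± 0.135 (SD, n = 4) to 38.2% ± 0.360 (SD, n = 3). All 6 classes fell, with no overlap between the groups (p = 0.0286 in each by the exact permutation test, also after adjustment).

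As a fraction of the starting level the loss was alike up to 100 bp and smaller beyond. The relative changes of the 5 classes from 2 to 100 bp were -11.8, -12.4, -13.2, -12.7 and -13.7%. The 8947 CpGs with no listed neighbour within 100 bp were at 62.5, 63.1, 62.7 and 62.3% in the vehicle wells and at 57.9, 57.3 and 57.4% in the 5aCdR wells, a relative change of -8.11%. Set against CpGs at 2 to 5 bp, these isolated CpGs kept more, by 0.0585 on the log2 scale (exact permutation test of the difference, p = 0.0286). This contrast did not hold among CpGs listed on 1 strand only, where it was 0.00958 (p = 0.343, exact permutation). It did not hold either with neighbours counted among the common CpGs alone, where it was 0.0215 (p = 0.171, exact permutation). With at least 20 reads per CpG it was 0.0364 (p = 0.0286, exact permutation). Among the 34851 CpGs sorted as highly methylated the relative change was -8.51% over 100 bp and between -12.5 and -11.1% in the closer classes (contrast with 2 to 5 bp 0.0422, exact permutation p = 0.1, the smallest possible). That contrast was 0.0115 with at least 20 reads (p = 0.2, exact permutation) and 0.00335 at CpGs listed on 1 strand only (p = 0.8, exact permutation).

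Within the range from 76 to 1000 bp, bins chosen after the values of the wider classes were seen, the relative loss shrank step by step. It was -14.7% at 76 to 100 bp, -11.8% at 101 to 150 bp, -7.96% at 151 to 200 bp, -4.45% at 201 to 300 bp and -2.40% at 301 to 1000 bp. The 1046 CpGs of the last bin were at 60.1, 60.8, 59.4 and 59.5% in the vehicle wells and at 59.6, 57.5 and 58.4% in the 5aCdR wells. In this bin the groups overlapped, and the difference missed the threshold (p = 0.0857, exact permutation). The other 4 bins did not overlap and fell (p = 0.0286 in each, exact permutation). The same order was found among CpGs listed on 1 strand only, from -15.7% at 76 to 100 bp to -2.27% at 301 to 1000 bp. In these, however, the bins from 2 to 75 bp lost less than the bin at 76 to 100 bp, with relative changes of -10.6 to -8.93%. CpGs at over 200 to 1000 bp differed from those at 100 bp or less by 0.143 on the log2 scale over all common CpGs and by 0.104 among those listed on 1 strand only (exact permutation test, p = 0.0286 in each).

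**Figure D2:**
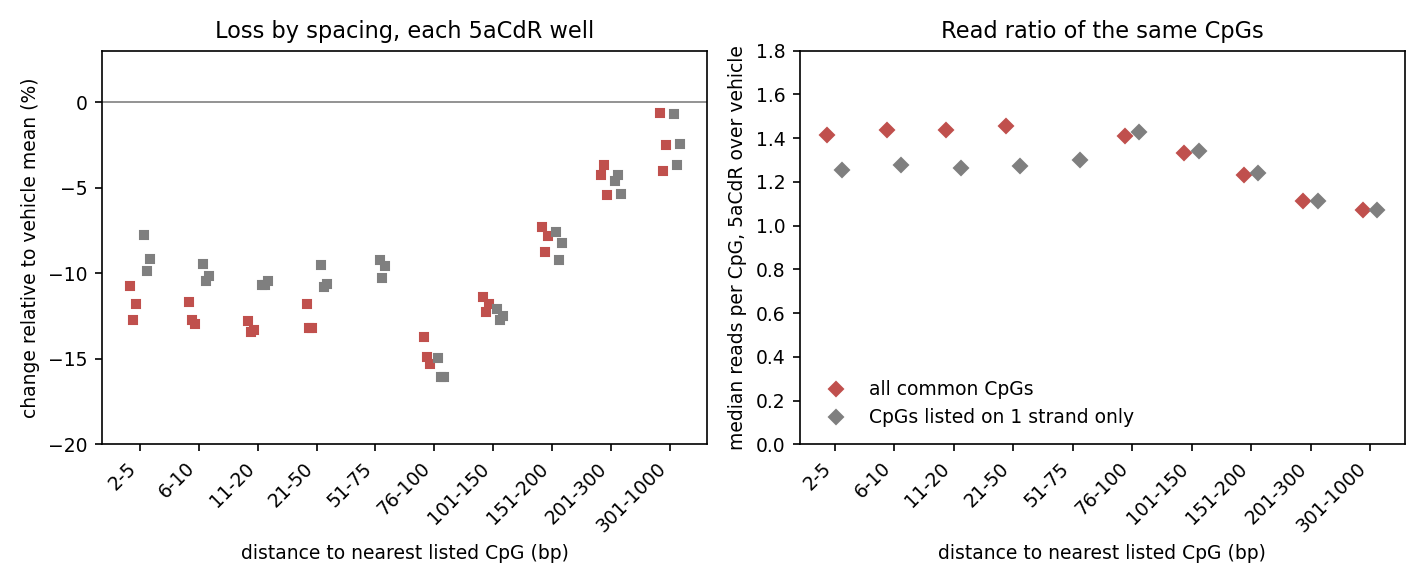
Change of each 5aCdR well relative to the vehicle mean (left, percent) and ratio of the median reads per CpG, 5aCdR over vehicle (right), by distance to the nearest listed CpG in bp. Squares on the left are wells, and the bin of 51 to 75 bp is drawn only for CpGs listed on 1 strand. From 76 to 1000 bp the loss over all common CpGs shrinks from -14.7 to -2.40% while the read ratio drops from 1.41 to 1.07.

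The number of reads moved with this order. The ratio of the median reads after 5aCdR to the median reads with vehicle dropped from 1.41 at 76 to 100 bp to 1.07 at 301 to 1000 bp. CpGs with relatively more reads after 5aCdR also lost more. In 3 equal groups of CpGs by the read ratio of each CpG the relative changes were, from low to high, -7.18, -12.8 and -17.4%. With the ratio taken from 5aCdR well 1 and vehicle wells 1 and 2 and the levels from the other wells, they were -10.4, -12.7 and -14.8%. Between vehicle wells alone, wells 1 and 2 against 3 and 4, the 3 groups differed by 3.15, 0.137 and -2.82%. When the vehicle ratio came from wells 1 and 2 and the levels of wells 3 and 4 were compared, the differences lay between -0.168 and 0.179%. Within each of the 3 groups by the 5aCdR to vehicle ratio, CpGs over 100 bp from a neighbour lost a smaller fraction than the rest. Their relative changes were -5.72, -9.08 and -11.8%, against -7.40, -13.2 and -17.9% for CpGs at 100 bp or less. In 4 ranges of mean reads per CpG the order was the same, from -3.94% against -11.5% at 10 to 30 reads to -10.2% against -11.3% at 120 reads or more. The part of fragment recovery in the relation of loss to spacing was not tested beyond these values.

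To remove the difference in depth, the reads of each CpG were drawn down to 10 in each library. CpGs with 8 to 10 methylated reads made up 26.5, 28.7, 28.9 and 26.7% of common CpGs in the vehicle wells and 20.0, 20.3 and 20.0% in the 5aCdR wells. This share fell from 27.7% ± 1.26 (SD, n = 4) to 20.1% ± 0.192 (SD, n = 3), with no overlap (exact permutation test, p = 0.0286, adjusted over 3 classes 0.0429). CpGs with 3 to 7 methylated reads rose from 15.7% ± 2.46 (SD, n = 4) to 21.7% ± 0.654 (SD, n = 3) (exact permutation test, adjusted p = 0.0429). The share with 0 to 2 methylated reads overlapped, at 56.7% ± 1.20 (SD, n = 4) and 58.2% ± 0.506 (SD, n = 3) (exact permutation, adjusted p = 0.143). Within the vehicle group, the share with 3 to 7 methylated reads was 18.1 and 17.4% in wells 1 and 4 and 13.7 and 13.4% in the shallower wells 2 and 3. Against wells 1 and 4 alone it was higher after 5aCdR by 3.94 points and not by 6.05 (exact permutation, p = 0.1, the smallest possible).

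At the extremes, all 10 reads were methylated at 20.9, 24.6, 25.2 and 21.5% of CpGs in the vehicle wells and at 13.2, 14.1 and 13.8% in the 5aCdR wells. This difference of -9.34 points had an adjusted p of 0.0571 over the pair of extremes (exact permutation; unadjusted 0.0286). No read was methylated at 49.9% ± 2.71 (SD, n = 4) and 47.8% ± 1.01 (SD, n = 3), which overlapped (exact permutation, p = 0.343). Equal reads did not make the wells equal in independent reads. Vehicle wells 2 and 3, with 1.98 and 1.88 per CpG, had the highest shares at both extremes, and the 5aCdR wells had the most independent reads. Against vehicle wells 1 and 4 alone, the deeper pair, the share with 8 to 10 methylated reads was lower by 6.51 points (exact permutation, p = 0.1, the smallest possible), and these comparisons with wells 1 and 4 were chosen after the data were seen.

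**Figure D3:**
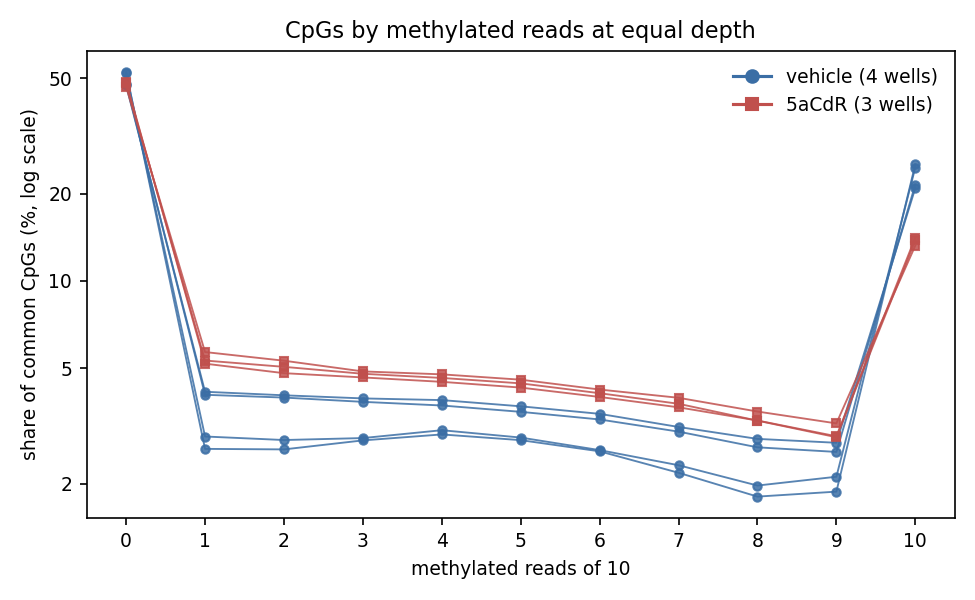
Share of the 155920 common CpGs (percent, log scale) by the number of methylated reads among 10 drawn reads, with 1 line per well. The 5aCdR wells lie at 13.2 to 14.1% at 10 of 10 and the vehicle wells at 20.9 to 25.2%, while at 0 of 10 the groups overlap.

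Agreement between wells does not depend on how many molecules a read stands for, since different wells share none. The chance that reads drawn from the same CpG in 2 different wells were both methylated was 26.0% over the vehicle pairs (25.99 to 26.03%) and 20.3% over the 5aCdR pairs (20.1 to 20.4%). The 5aCdR value was 78.0% of the vehicle value. Had each CpG lost the same fraction of its methylation, 76.9% would be left by arithmetic, and had some CpGs lost all and the others none, 87.7%. For reads from 3 different wells the share was 21.4% with vehicle and 15.0% after 5aCdR, or 70.2% of the vehicle value, against 67.4% and 87.7% from the same arithmetic. Reads of different wells disagreed at 19.3% of draws with vehicle and 22.0% after 5aCdR. At CpGs over 100 bp from a neighbour the triple agreement was 78.2% of the vehicle value, against 77.6% for an equal fraction at each CpG. The measured values lay near the equal fraction in both sets.

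A small part of the loss repeated at the same CpGs. After the equal fraction was taken out, the departure of single CpGs was compared between 5aCdR well 1 with vehicle wells 1 and 2, and 5aCdR well 2 with vehicle wells 3 and 4, which share no library. The correlation over 155920 CpGs was 0.0224, and the shared departure had an SD of 3.33 points, next to a total scatter of 21.5 and 23.0 points. Over all 18 such pairings it was 3.27 to 4.08 points, and between vehicle wells alone 0.834 to 1.83 points. With at least 20 reads per CpG it was 4.12 points.

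Neighbouring CpGs departed together over short distances. Averaged over the pairings, the covariance was 13.7 squared points at the same CpG and 5.07 between CpGs at 2 to 5 bp. It stayed at 5.36 and 5.05 up to 50 bp, was 3.89 at 51 to 100 bp and 1.43 at 101 to 300 bp. In the last of these bins the pairings ran from -0.211 to 3.19. From 301 bp to 1000 kb it lay between -0.173 and 0.281. Vehicle wells alone gave 2.23 at the same CpG and -4.51 at 2 to 5 bp, with pairings from -6.77 to -2.63. In size these pairings reached the 5.07 of the 5aCdR comparison. At the other distances the vehicle wells gave means of -2.19 to 0.561. The sign of each vehicle pairing only follows the order in which its wells were subtracted. Neither these signs nor the means over the vehicle pairings are read. Neighbouring CpGs can share reads and fragments within a library. The 2 departures compared came from different libraries, but the relation of loss to the read ratio also repeated in other wells. Its part in the covariance was not tested.

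**Figure D4:**
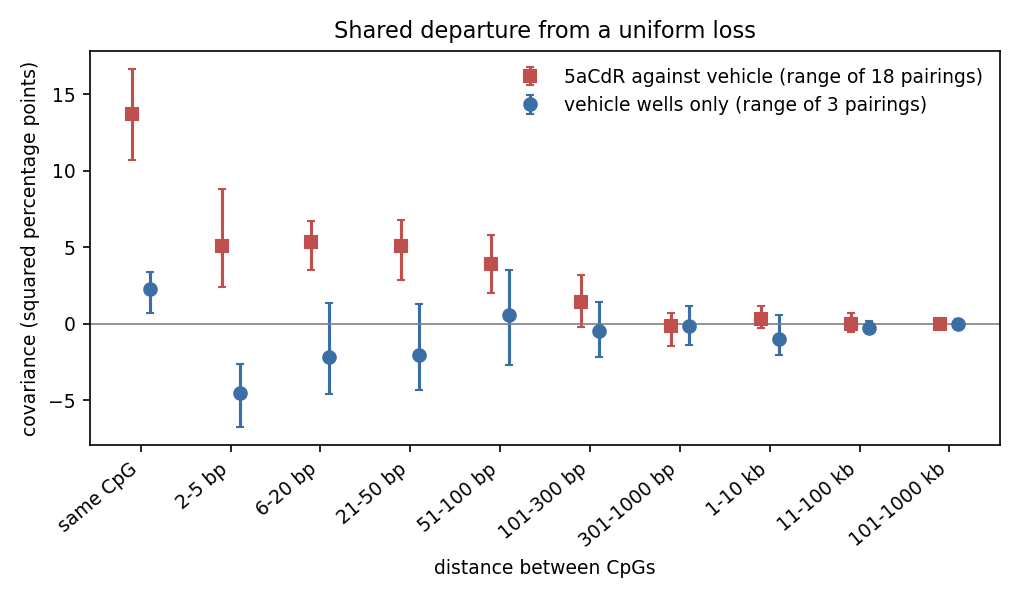
Covariance, in squared percentage points, of the departure from a uniform fractional loss between wells that share no library, by distance between the CpGs. Red squares average 18 pairings of 5aCdR with vehicle wells, blue circles 3 pairings of vehicle wells, and bars span the pairings. The sign of the blue values follows the order in which wells were subtracted and is not read. The red values lie between 3.89 and 5.36 from 2 to 100 bp and near 0 from 301 bp on.

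Most methylation remained. Of the 34851 CpGs sorted as highly methylated in vehicle wells 1 and 2, 82.6 and 81.1% had 8 or more of 10 methylated reads in vehicle wells 3 and 4. In the 5aCdR wells 63.9, 63.8 and 62.9% had. All 10 reads were methylated at 73.2% ± 3.80 (SD, n = 2) and 46.4% ± 0.968 (SD, n = 3). Both comparisons were without overlap (exact permutation, p = 0.1, the smallest possible). Only 5.53% ± 1.44 (SD, n = 2) of them with vehicle and 7.09% ± 0.847 (SD, n = 3) after 5aCdR had 2 or fewer methylated reads, and these overlapped (exact permutation, p = 0.3). Vehicle wells 3 and 4 had 1.88 and 2.81 independent reads per CpG, and the 5aCdR wells 3.10 to 3.81. At 10 of 10 reads, vehicle wells 3 and 4 stood at 75.9 and 70.5%. The part of this unlike number in the shares was not tested.

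Complete loss in all 5aCdR wells was rare. Of 20832 CpGs at 80% or more in all 4 vehicle wells, 7710 (37.0%) were also at 80% or more in all 3 5aCdR wells and 1678 (8.05%) in none. Below 20% in all 3 were 4 CpGs, a count named after it was seen. These shares are a description, since the vehicle wells chose the CpGs and few independent reads stand behind a single level.

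CpGs that stayed methylated in 1 of the wells had lost a smaller fraction in the others, as a description without a test. Among the highly methylated CpGs, 16205 (46.5%) were at 90% or more in 5aCdR well 1. In 5aCdR wells 2 and 3 these stood at 84.2 and 84.5%, and in vehicle wells 3 and 4 at 92.9 and 93.0%, a relative change of -9.21%. The 5138 CpGs below 50% in 5aCdR well 1 stood at 62.0 and 62.0% against 72.6 and 73.0%, a relative change of -14.8%. Of the first set 13.4% and of the second 8.17% lay over 100 bp from a listed neighbour. In the primary cells, which had no part in the choice, the kept set averaged 85.1% and the other 68.7%, at the 7918 and 2496 CpGs with 10 reads in all 11 libraries.

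The loss was also set beside the level in primary cells. Highly methylated MT2 CpGs that were at 80% or more in primary cells (12414 CpGs) went from 91.6 to 81.3%, a relative change of -11.3%. Those at 20 to 80% in primary cells (6110 CpGs) went from 82.5 to 71.0%, a relative change of -14.0%. Those below 20% in primary cells (485 CpGs), which are higher in the line than in primary cells, went from 73.7 to 63.3%, a relative change of -14.1%. The contrast of below 20% with 80% or more was -0.0462 on the log2 scale (exact permutation test, p = 0.1, the smallest possible). The sets differed in starting level in MT2, which was not matched. Over 100 bp from a neighbour were 14.1% of CpGs at 80% or more in primary cells, 9.75% at 20 to 80% and 7.22% below 20%.

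By scaffold means, the loss spread over the genome. All 148 scaffolds with at least 300 common CpGs had a lower mean after 5aCdR. In 143 of them (96.6%) the groups did not overlap, and in none was 5aCdR higher without overlap. The relative change had a median of -12.3%, with the middle 50% of scaffolds between -13.5 and -11.2%. The extremes were -20.4% on KB708208.1 and -4.37% on KB708243.1.

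Single regions were tested as tiles of 1 kb with at least 3 common CpGs, with a quasi-binomial model on methylated and unmethylated reads. Of 18639 tiles 149 passed an adjusted p of 0.05 (0.799%), 146 lower (0.783%) and 3 higher (0.0161%) after 5aCdR, and 2297 had an unadjusted p below 0.05. Without overlap between the groups, 7.62% of tiles were lower and 1.19% higher. Whatever the overlap, 61.3% of tiles and 46.1% of single CpGs had a lower level after 5aCdR. The others were higher or unchanged, and the median difference over all tiles was -1.22 points. The count depended on single vehicle wells: without vehicle 1, 2, 3 or 4 it was 53, 91, 81 and 39. Of these, 52, 84, 73 and 37 were among the 149. Single CpGs were called at 132 of 155920 (0.0847%), 131 lower (0.084%) and 1 higher (0.000641%), with 13675 at an unadjusted p below 0.05. That count was 62 and 85 without vehicle 1 or 4, and 8, 9 and 8 without 5aCdR well 1, 2 or 3. The 146 lower tiles were more deeply read than most, with a median of 473 reads per library against 197 over all tiles tested.

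The lowered tiles named here are the 10 of smallest adjusted p among 15 tiles with at least 5 common CpGs, a fall of at least 25 points, no overlap and no CpG of very high coverage. The tile at 5284001 to 5285000 of KB708179.1 (5 CpGs) was at 100, 99.2, 100 and 96.8% in the vehicle wells and at 68.3, 67.7 and 68.6% in the 5aCdR wells. The vehicle wells were close to full methylation and the 5aCdR wells agreed within 1 point. It fell by 30.8 points (adjusted p = 0.000941 in the quasi-binomial model). The next tile, at 3728001 to 3729000 of KB708161.1 (6 CpGs), was at 96.7, 89.0, 99.3 and 95.6% and at 74.1, 62.4 and 64.7%. It fell by 28.1 points (adjusted p = 0.00725, quasi-binomial test). These 2 tiles stayed called in each alternative in which the quasi-binomial model was run on them, each well left out included. Of the 12 lowered and raised tiles named, 6, 11, 11 and 5 stayed called without vehicle 1, 2, 3 or 4, and 7, 11 and 10 without 5aCdR well 1, 2 or 3. With vehicle wells 1 and 4 only, 4 of the 12 stayed called, and with a replicate block 3.

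Tiles of intermediate level also fell. At 17854001 to 17855000 of KB708140.1 (8 CpGs) the vehicle wells were at 61.2, 65.5, 70.7 and 64.4% and the 5aCdR wells at 38.9, 41.8 and 34.3% (quasi-binomial test, adjusted p = 0.00899). At 29823001 to 29824000 of KB708131.1 (5 CpGs) they were at 51.3, 46.9, 65.3 and 54.1% and at 13.7, 16.4 and 20.5% (adjusted p = 0.0152), the largest fall of the 10, 37.5 points. The tile at 901001 to 902000 of KB708300.1 (7 CpGs) was at 30.9, 38.5, 64.2 and 36.3% with vehicle and at 9.70, 9.81 and 8.61% after 5aCdR (adjusted p = 0.0110). Vehicle well 3 stood above the other vehicle wells there. In the other 5 tiles the vehicle means were 75.2 to 98.5% and the 5aCdR means 41.2 to 70.6%. They lie at 3001 to 4000 of APMT01218720.1, 5777001 to 5778000 of KB708147.1, 13871001 to 13872000 of KB708152.1, 14647001 to 14648000 of KB708167.1 and 9884001 to 9885000 of KB708201.1. No annotation of these scaffolds was at hand, so no gene is named.

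Of the raised tiles, 2 had no overlap, and both rested on few reads. The tile at 577001 to 578000 of KB708160.1 (3 CpGs, a median of 74 reads per library) was at 7.83, 21.9, 0 and 20.9% in the vehicle wells and at 84.7, 71.4 and 100% after 5aCdR (adjusted p = 0.0211, quasi-binomial model). On APMT01211248.1, positions 9001 to 10000 (5 CpGs, 136 reads) were at 0, 0, 1.65 and 0% and at 33.7, 19.8 and 68.9% (adjusted p = 0.0297). The 5aCdR wells of this tile differed widely among themselves. Over the alternatives the adjusted p ran up to 0.0975 for the first and 0.157 for the second.

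Some tiles kept their methylation. Of 1459 tiles at 80% or more in all 4 vehicle wells, 505 were at 80% or more in all 7 wells, and the values chose them, so they are described without a test of retention. They were much like the 1459 in spacing and depth, with a median of 4 against 3 CpGs, a median neighbour distance of 10 against 11 bp and 185 against 193 reads per library. Their median level was 97.2% with vehicle and 94.2% after 5aCdR, against 96.3 and 84.0% for the 1459. The 10 retained tiles with the most common CpGs hold 7 to 11 each.

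In 8 of these 10 the wells of the groups overlapped, which is not particular to retained tiles. Over all tiles tested, only 7.62% were lower and 1.19% higher without overlap. The tile at 1908001 to 1909000 of KB708265.1 (11 CpGs) was at 94.2, 84.7, 100 and 97.4% with vehicle and at 97.7, 84.6 and 94.4% after 5aCdR. At 847001 to 848000 of KB708129.1 (8 CpGs) the wells were at 99.8, 96.6, 94.8 and 95.04% and at 91.7, 97.5 and 100%. At 1271001 to 1272000 of KB708344.1 (8 CpGs) they were at 90.0, 99.8, 85.4 and 93.3% and at 95.9, 92.8 and 94.1%. The wells of the groups were interleaved in all 3. Of the others, the tile at 2445001 to 2446000 of KB708293.1 (11 CpGs), the deepest of the 10, was at 88.6, 87.8, 89.7 and 89.5% and at 84.4, 83.6 and 85.7%. Although kept above 80%, it fell by 4.34 points (adjusted p = 0.0202, quasi-binomial model). Positions 1 to 1000 of APMT01237367.1 (10 CpGs) did not overlap, at 92.2 to 100% and 83.7 to 86.7%, and did not pass (adjusted p = 0.0561).

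**Figure D5:**
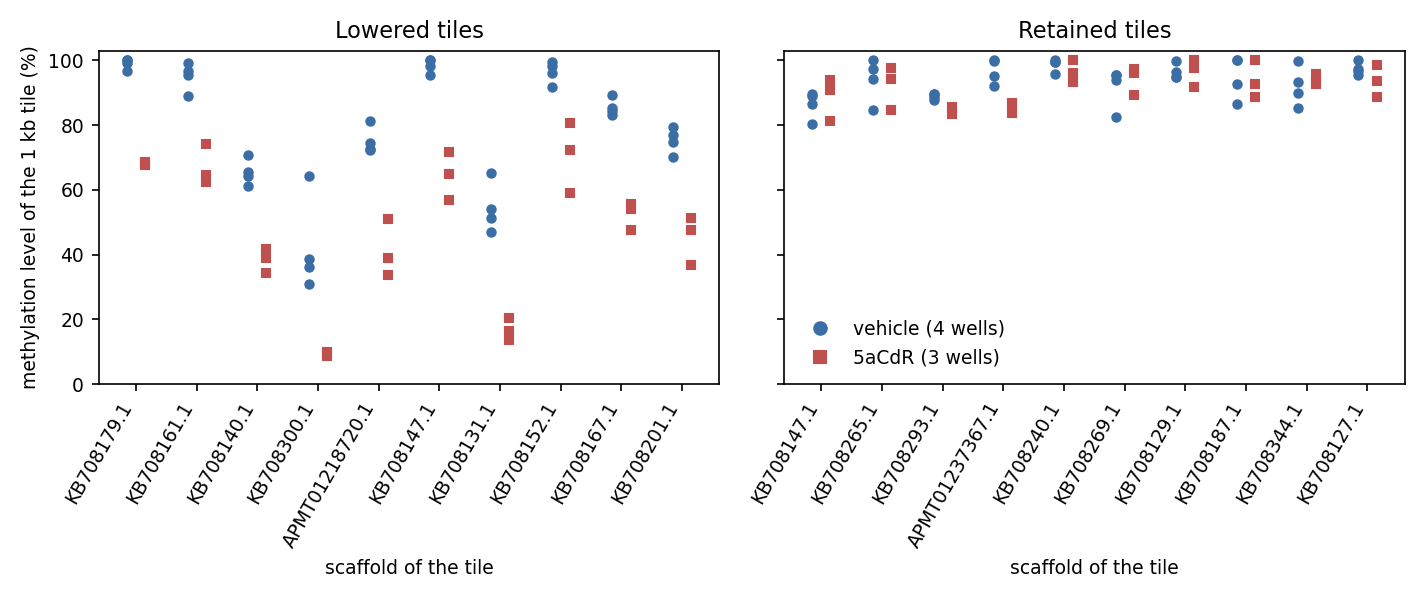
Methylation level (percent of reads) of the 10 named lowered tiles (left) and the 10 retained tiles with the most CpGs (right) in each well, labelled by scaffold. Blue circles are the 4 vehicle wells and red squares the 3 5aCdR wells, which lie below all vehicle wells in the lowered tiles and overlap them in 8 of the 10 retained ones.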

How the data were processed

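Per the labels' protocols, a commercial RRBS kit was used on 100 ng of DNA per library. The submitters' processing notes list methylKit 1.10.0, R 3.6.1, Bismark 0.22.1, Bowtie2, Trim Galore 0.5.0 and bcl2fastq 2.20.0.42. Scaffold positions follow the files. Not given in the sources used here are the build and any removal of PCR duplicates. The deposited tables hold, for each strand of a CpG, the count of reads (coverage) and the percent of them read as C and as T, per the file headers. Positions start at 10 reads, so a strand with fewer is missing from a CpG's sum. Of 4 plates given 5aCdR per the labels' protocols, 3 libraries were analysed here.

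Methylated reads were coverage times the percent of C, rounded (99.98% or more of positions per library lay within 0.05 of a whole number), and reverse positions, less 1 base, were added to forward ones. Levels per well are means over CpGs, compared by exact two-sided permutation tests of the difference in means (smallest p 0.0286 for 3 against 4, 0.1 for 3 against 2). Contrasts between classes use the log2 ratio of the class levels per library. For tiles of 1000 bp and for single CpGs, a quasi-binomial logistic model was fitted, whose Pearson dispersion was moderated by limma 3.58.1 (R 4.3.3) and kept at 1 or more, adjusted by Benjamini-Hochberg over all units. Independent reads per CpG are the binomial variance of the levels over the scatter between wells. Python 3.11.15, numpy 2.4.6, scipy 1.17.1 and pandas 2.3.3 were used, and the tests were tried on simulated data. Counting intervals were left out since the number of molecules is not known.

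Members, classes and tests were chosen with earlier results of these data known. Named tiles follow the rules given with them. Alternatives were at least 20 reads, pooled reads, an upper limit on coverage, other seeds, wells, neighbours and tile sizes, limma on the logit, a replicate block and each well left out. The CpGs listed on 1 strand only, vehicle wells 1 and 4 only, and the removal of 2 scaffolds were added after seeing the data. A gene table of another assembly was not used.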

Additional observations from a re-analysis of the deposited data

Results flagged for a closer look

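In 52 sets of 4 vehicle values tested for a well far from the other 3, 4 were found, where chance alone gives about 1 in 20. The mean level of vehicle well 1, 35.7%, lay apart from the other vehicle wells, all at 35.6%, a gap far smaller than the change after 5aCdR. In the raised tile at 9001 to 10000 of APMT01211248.1, vehicle well 3 was at 1.65% and the others at 0. In the retained tile at 7033001 to 7034000 of KB708240.1, vehicle well 1 was at 95.7% and the others at 99.6 to 100%. In the retained tile at 1462001 to 1463000 of KB708269.1, vehicle well 2 was at 82.4% and the others at 94.1 to 95.5%.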

How the results depend on the processing

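For the 8 main results that have a direction, 0 of 84 alternatives reversed it and 37 lost the call. The other 47 did not change the call. They include all alternatives of the results read in 3 against 2 wells, whose p of 0.1 (exact permutation) was never a call. Of the alternatives for single classes and tiles 0 of 224 reversed. Counts of called tiles and CpGs have no direction. Deviations of same-numbered vehicle and 5aCdR wells had correlations of -0.00330 to 0.00513, and those of differently numbered wells -0.00560 to 0.00911. With so few independent reads per CpG, a shared effect could be missed. Whether the numbers mark pairs was therefore not settled. With a replicate block over 3 pairs, which cannot go below p = 0.25 in an exact sign-flip permutation, the mean difference was -4.40 points, that of the strand-sorted CpGs -9.23, the contrast of CpGs over 100 bp with those at 2 to 5 bp 0.0543 and the change in CpGs with 8 to 10 methylated reads -7.93. The block called 59 tiles and 400 CpGs, 97 of them higher. On simulated data that fit called unchanged CpGs, so its count of CpGs is not read further. With vehicle wells 1 and 4 only, the same quantities were -4.41, 0.0680 for the contrast and -6.51, with 37 tiles (exact permutation, p = 0.1 in each of the 3, the smallest possible). Leaving out 1 well at a time gave -4.52 to -4.31 for the mean, -10.2 to -8.40 for the strand-sorted CpGs, 0.0533 to 0.0642 for the contrast, -8.00 to -7.20 for the share, 39 to 119 tiles and 8 to 119 CpGs. With 1 well fewer, or the block, those exact tests cannot go below 0.05. The contrast was 0.0215 with neighbours among common CpGs, 0.00958 at CpGs listed on 1 strand and 0.0364 with at least 20 reads, and the cause was not tested. Tiles called were 61 with at least 5 CpGs (7331 tested), 28 with limma on the logit and 35 from CpGs listed on 1 strand (4615 tested). With at least 20 reads, 258 of 55290 CpGs were called and the shared departure of single CpGs was 4.12 points. With other wells it was 3.62. Depth, 1.88 to 3.81 independent reads per CpG over all common CpGs, limits the levels of most single CpGs. The 1357 CpGs with 400 or more mean reads had more, 23.4 to 50.3 with vehicle and 45.2 to 60.0 after 5aCdR. The 3 against 4 wells of 1 stock limit p-values to 0.0286.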
